A study of Mus musculus with 8 samples.

Results

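The cytosolic ribosomal protein genes were examined in mesenchymal stem cells of mouse bone marrow, with femur as the labelled tissue. One group of 4 libraries came from cells given 10 µM ellagic acid for 48 h, called EA here. The other group of 4 libraries, Control, came from cells given the same dose of DMSO, the solvent. All libraries were made from poly(A) RNA, and the labels name neither a strain nor an age. Members were taken by name from the count table, as every gene with an Rpl or Rps symbol and a number, with the stalk genes Rplp0, Rplp1 and Rplp2 and with Rpsa. This gave 84 of the 21899 genes, of which 52 belong to the large and 32 to the small subunit. A filter on low counts left 80 for testing, 48 of the large and 32 of the small subunit. Rpl10l and Rpl39l had 0 reads in both groups, Rpl3l had 4 reads in EA and 5 in Control, and Rpl24 had 42 reads in EA and 28 in Control.

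A cytosolic ribosome is built from a large subunit, which joins amino acids, and a small subunit, which reads the messenger RNA. Each subunit holds many proteins that are usually made in step with one another, and an incomplete subunit is degraded. Most of their mRNAs begin with a run of C and T bases at the start site, called a 5′ terminal oligopyrimidine tract, which lets mTOR signalling through LARP1 set how fast they are translated. The level of an mRNA is therefore only one of the controls on a ribosomal protein, and translation was not measured here.

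The start sites of 64 of the 84 members were found in RefSeq (GRCm38.p6), and 20 had no entry. Of these 64, 13 (20.3%) began with a C followed by at least 4 further C or T bases, against 813 (3.01%) of 27025 genes in the same table. By subunit this was 7 of 40 large subunit members (17.5%) and 6 of 24 small subunit members (25.0%). Within 5 bases before to 10 bases from the start, such a run was found for 29 members (45.3%) and for 5718 genes in all (21.2%). Only the coding strand was searched, for C followed by 4 bases that are each C or T. The windows below, from 40 bases before to 20 bases from the annotated start, belong to 3 members that gained and 3 that lost share of the ribosomal protein reads, as described further on, and were chosen after their values were seen. Capitals mark the annotated first base and the unbroken C and T run that follows it. Rpl14 lies at chr9:120571477-120571536 on the plus strand, Rps27 at chr3:90213629-90213688 on the minus strand and Rps6 at chr4:86857348-86857407 on the minus strand. Rps2 lies at chr17:24720023-24720082, Rpl12 at chr2:32961672-32961731 and Rpsa at chr9:120127726-120127785, all on the plus strand.
Rpl14: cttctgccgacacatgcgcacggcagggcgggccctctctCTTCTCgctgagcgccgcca
Rps27: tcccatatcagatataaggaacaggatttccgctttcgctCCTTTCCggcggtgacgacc
Rps6: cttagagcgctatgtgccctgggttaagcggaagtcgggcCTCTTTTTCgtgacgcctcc
Rps2: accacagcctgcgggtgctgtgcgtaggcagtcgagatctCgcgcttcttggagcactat
Rpl12: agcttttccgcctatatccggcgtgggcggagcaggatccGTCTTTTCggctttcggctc
Rpsa: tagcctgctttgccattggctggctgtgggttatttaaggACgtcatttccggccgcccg
The Rpl14, Rps27 and Rps6 starts open on C, with runs of 6, 7 and 9 bases, whereas the Rps2 start has a C followed by G, the Rpl12 start opens on G and the Rpsa start opens on A. Among members with a start region, the run was present for 4 of 11 that gained share of the ribosomal protein reads, 0 of 4 that lost it and 9 of 45 with no call. With runs near the start counted too, this was 5 of 11, 3 of 4 and 21 of 45, so the order of the groups depended on the window. The printed gainers are all among the 4 with a run at the start. Rpl36al, Rpl37a and Rpl39 gained more than Rps6 on the log2 scale and had no such run at the annotated start. The annotated starts are database entries, not starts measured in these cells.

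Library totals ran from 14112519 to 17390200 reads. The 10 most counted genes of each library held 11.6% ± 0.143 of all reads in EA libraries and 9.03% ± 0.417 in Control libraries (SD, n = 4 each). Mitochondrially encoded genes took 2.61% ± 0.195 in EA and 2.07% ± 0.188 in Control. The labelled cell type was checked against 15 stromal markers, all in the table, whose summed level was 24481 to 25541 CPM in EA and 16680 to 18937 CPM in Control. CPM are counts scaled to a common library size, here and below with TMM factors. Scaled to library totals the same sum was 21663 to 22528 in EA and 18817 to 21398 in Control. Col1a1, Col1a2 and Sparc led that sum, while Thy1 had only 7 reads in EA and 12 in Control. Of the 14 stromal markers tested, 8 rose and 3 fell with TMM, where 33.1% and 34.2% of all tested genes did. Of those higher in EA, Pdgfra averaged 631 CPM in EA and 137 CPM in Control. Pdgfrb averaged 520 CPM in EA and 190 CPM in Control, and Sparc 2797 CPM in EA and 1251 CPM in Control. Among those lower in EA, Ly6a averaged 11.8 CPM in EA and 33.2 CPM in Control. Vcam1 averaged 207 CPM in EA and 308 CPM in Control, and Prrx1 338 CPM in EA and 510 CPM in Control. The 10 macrophage markers summed to 59.9 to 64.2 CPM in EA and 60.4 to 75.4 CPM in Control with TMM, and to 52.6 to 56.8 in EA and 68.2 to 85.6 in Control with library totals, nearly all from Lyz2 and Cd14. These 2 moved in opposite directions. Lyz2 averaged 51.0 CPM in EA and 34.3 CPM in Control, and Cd14 9.64 CPM in EA and 34.0 CPM in Control. Ptprc, which marks blood cells, had 17 reads in EA and 16 in Control, and Itgam had 0 in EA and 1 in Control. Neutrophil, endothelial and erythroid markers each summed to at most 4.29 CPM in any library. The part of other cells in the results was not tested. In such bulk RNA, fewer cells of a type and less RNA per cell cannot be told apart.

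Ribosomal protein genes took a smaller share of all reads after ellagic acid. Their share was 4.32%, 4.40%, 4.10% and 4.39% in the 4 EA libraries, against 5.09%, 4.91%, 5.02% and 4.67% in the 4 Control libraries. The groups did not overlap, with means of 4.30% ± 0.137 in EA and 4.92% ± 0.185 in Control (SD, n = 4 each), a difference of -0.617 points or -12.5%. The widest 95% Wilson interval of such a share in a library was ± 0.0111 points, which covers counting error only. The large subunit took 2.55% ± 0.0824 in EA and 2.87% ± 0.110 in Control, and the small subunit 1.76% ± 0.0543 in EA and 2.05% ± 0.0756 in Control. Outside the 10 most counted genes, the members' share was 4.87% ± 0.159 in EA and 5.41% ± 0.227 in Control. These shares are scores over chosen members and were given no test.

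The direction for single members depended on how the libraries were scaled. TMM scaling sets factors so that the bulk of genes does not move between libraries, and its factors were 0.878 to 0.885 in EA and 1.13 to 1.14 in Control. On that scale the members summed to 48794 ± 1665 CPM in EA and 43384 ± 1540 CPM in Control, higher by 12.5% in EA and without overlap. Scaling to the library totals instead shifted all log2 fold changes by -0.36, members included. A statement that a member rose therefore means that it rose relative to the bulk of genes.

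**Figure D1:**
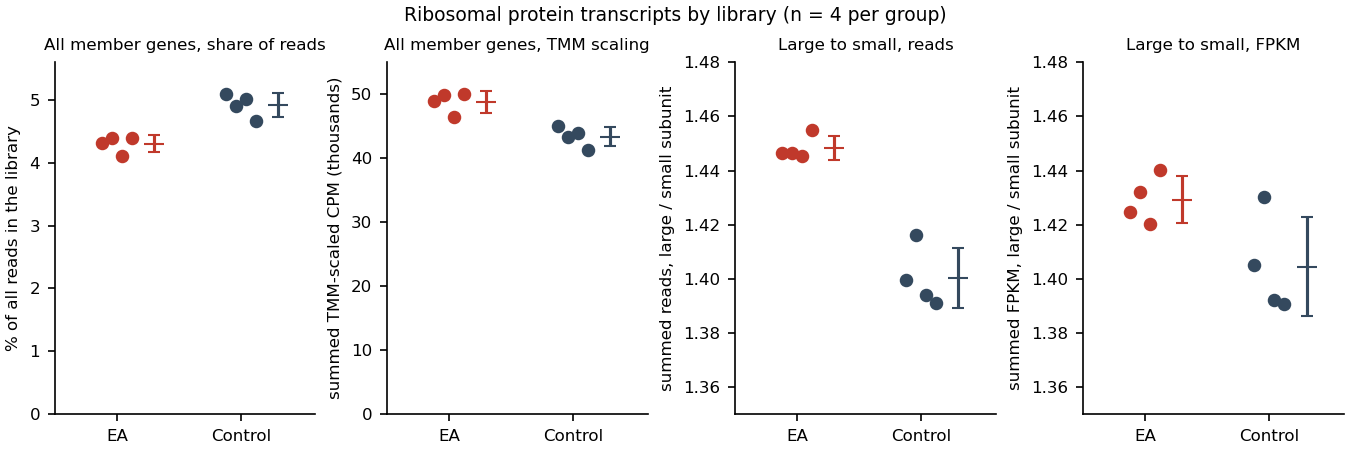
Points are the 4 EA and 4 Control libraries, with bars at the mean ± SD: share of all reads in ribosomal protein genes (percent), their TMM-scaled sum (CPM), the large to small subunit ratio of summed reads and the same ratio of summed FPKM. The share was lower in all EA libraries and the TMM-scaled sum higher, the ratio ran between 1.445 and 1.455 in EA, against 1.391 and 1.416 in Control, and the groups overlapped on FPKM. The axes of both ratios do not start at 0.

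Under TMM scaling, 53 of 80 tested members rose and 1 fell (edgeR quasi-likelihood test, Benjamini-Hochberg adjusted p under 0.05). Of all 11777 tested genes, 33.1% rose and 34.2% fell, 67.2% in all. The large subunit had 31 that rose and 0 that fell, with 0 lower at an unadjusted p under 0.05 in edgeR and 0 called lower by DESeq2. The small subunit had 22 that rose and 1, Rps2, that fell. The median log2 fold change was 0.20 over the members, 0.21 in the large and 0.18 in the small subunit, against -0.02 over all tested genes. Single members ranged from -0.13 to 1.33, and 73 of 80 were above 0. In 37 members no EA library overlapped a Control library on the higher side, and in 0 on the lower side, against 29.9% and 30.7% of all tested genes. With library totals, 3 members rose and 54 fell, against 16.5% and 61.1% of all genes (77.6% in either direction), and the members' median was -0.17 against -0.38 over all genes. In 3 members the library totals gave no overlap on the higher side and in 44 on the lower, against 14.8% and 56.0% of all genes. With upper-quartile factors 12 rose and 4 fell, against 24.0% and 45.3% of all genes, or 69.4% in either direction. Of the 53 members that rose with TMM, 28 were called lower with library totals. Only Rpl14, Rps27 and Rpl36al on the higher side, and Rps2 on the lower, were called the same way with TMM, library totals, upper-quartile factors and the ribosomal protein reads themselves as the scale.

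The last of these scales divides each member by the summed reads of all members in its library, called the pool here, and does not depend on how the rest of the transcriptome moved. On it the module kept close to a fixed composition: 67 of 80 members lay within 0.2 of the pool on the log2 scale, against 26.4% of all tested genes and 34.0% of the 2166 genes at 100 CPM or more. Members are part of their own scale, and abundant ones weigh on it most. That centres them near 0, at a median of 0.02, whereas all tested genes had a median of -0.19. The contrast of percentages therefore mixes this offset with spread. The interquartile range was -0.06 to 0.10 for members and -0.59 to 0.19 for all tested genes. Against the pool, 12 members rose and 6 fell by edgeR's quasi-likelihood test, where 22.6% of all tested genes rose and 44.9% fell, 67.5% in all. The risers were 8 large subunit members, among them Rpl36al, Rpl14, Rpl37a, Rpl39, Rpl10, Rpl4 and Rpl10a, and 4 small subunit members, Rps27, Rps21, Rps6 and Rps25. The fallers were Rpl13a, Rpl12, Rpl8 and Rpl29 of the large and Rps2 and Rpsa of the small subunit. Of the 18 calls, 12 were made under each of 12 other settings, among them Rps2, Rpl12 and Rpl8 as the lower ones. The calls on Rps25, Rpl10a, Rpl13a, Rpsa and Rpl29 were lost in 6 to 9 of the 12 settings and that on Rpl39 in 3. Rps25, Rpl4, Rpl10a and Rpl29 fell outside the rule for named genes and are listed after their values were seen. In 12 members the libraries did not overlap on the higher side and in 12 on the lower, against 20.0% and 40.7% of all tested genes.

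**Figure D2:**
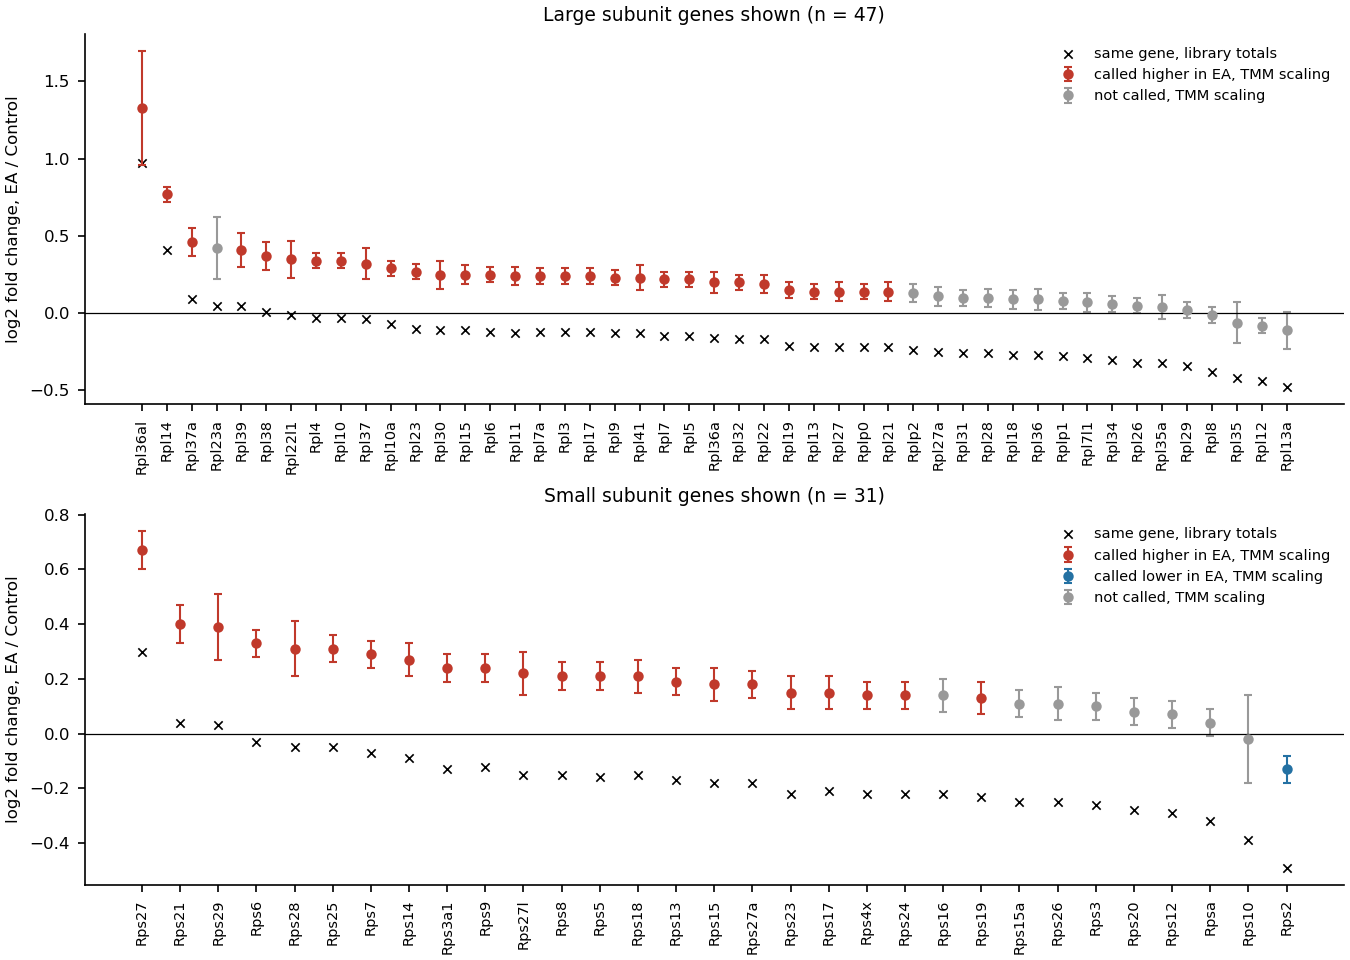
Log2 fold change of EA over Control for the tested genes shown, large subunit above and small subunit below, with TMM scaling (points, ± 1 SE, coloured where called) and with library totals (crosses). Rpl14 stood at 0.77 and 0.41 and Rps27 at 0.67 and 0.30 on these scales, while most other genes lay above 0 with TMM and under 0 with library totals.

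Among large subunit proteins, Rpl14 (chr9:120400510-120403720, plus strand, GRCm39) had the smallest p. It was measured at 625, 612, 589 and 586 CPM in EA, against 353, 368, 364 and 329 CPM in Control. The lowest EA library stood well above the highest Control library. It averaged 603 ± 18.5 CPM in EA and 353 ± 17.4 CPM in Control, a log2 fold change of 0.77 ± 0.05 (SE; adjusted p = 6.16e-11 by edgeR, 1.71-fold). Its share of the ribosomal protein reads was 1.27%, 1.23%, 1.27% and 1.17% in EA and 0.784%, 0.850%, 0.828% and 0.795% in Control, 0.60 ± 0.06 higher on the log2 scale (adjusted p = 3.25e-08 by edgeR). With library totals it still rose, by 0.41.

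Most other large subunit members called higher against the pool gained less, the exception being Rpl36al, a paralogue with few reads that is described below. Rpl37a, a zinc-binding protein, averaged 190 ± 21.2 CPM in EA and 139 ± 16.7 CPM in Control, a log2 fold change of 0.46 ± 0.09 (adjusted p = 0.000357 by edgeR) and 0.29 against the pool. Rpl39, a small protein that lines the exit tunnel, had log2 fold changes of 0.41 ± 0.11 (adjusted p = 0.00295 by edgeR) and 0.24, and its libraries overlapped on both scales. Rpl10, a late-joining protein near the catalytic centre, averaged 1126 ± 40.6 CPM in EA and 891 ± 27.2 CPM in Control, with log2 fold changes of 0.34 with TMM and 0.17 against the pool. Rpl4, which also reaches into the exit tunnel, had the same 2 log2 fold changes as Rpl10. With library totals none of these 4 was called, and their log2 fold changes lay between -0.03 and 0.09. Rpl3, which lies at the catalytic centre, and Rpl7 rose with TMM by 0.24 and 0.22, were not called against the pool and fell with library totals by 0.12 and 0.15. Rpl5 and Rpl11, which with 5S rRNA can hold back the p53 regulator MDM2, rose with TMM by 0.22 and 0.24, stood at -0.15 and -0.13 with library totals, and were named after their values were seen.

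The lower large subunit members were lower in share rather than in TMM-scaled level. Rpl12, at the base of the stalk, had 2.48% ± 0.0985 of the ribosomal protein reads in EA and 2.94% ± 0.134 in Control, without overlap and 0.25 lower on the log2 scale (adjusted p = 0.000658 by edgeR). Its TMM-scaled level was 1211 ± 25.5 CPM in EA and 1278 ± 75.6 CPM in Control, which did not pass the test (adjusted p = 0.205 by edgeR). Rpl8, next to the catalytic centre, had 2.87% ± 0.118 of the pool in EA and 3.26% ± 0.151 in Control, also without overlap (log2 fold change -0.18, adjusted p = 0.00639 by edgeR). Its TMM log2 fold change was -0.01. Rpl13a, with 553 reads in EA and 764 in Control, and Rpl35, with 630 reads in EA and 835 in Control, had TMM log2 fold changes of -0.11 and -0.06 that did not pass. With library totals Rpl12 stood at -0.44, Rpl8 at -0.38, Rpl13a at -0.48 and Rpl35 at -0.42. All of them were called lower on that scale, where 61.1% of all tested genes were. Rpl23a, with 336 reads in EA and 319 in Control, had a TMM log2 fold change of 0.42 ± 0.20 (adjusted p = 0.0735 by edgeR), which passed without the first Control library, at 0.69.

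The stalk proteins, which bring elongation factors to the ribosome, were not called against the pool. Rplp0, the stalk's anchor and the most abundant member per length, averaged 3228 ± 157 CPM in EA and 2924 ± 145 CPM in Control. It rose by 0.14 ± 0.05 with TMM (adjusted p = 0.0270 by edgeR), with overlapping libraries, had -0.03 against the pool and was called lower with library totals, at -0.22. The TMM call on Rplp0 was lost without Control library 2 and without EA library 1, 2 or 4, with log2 fold changes of 0.13 to 0.15. Rplp1 averaged 552 ± 16.2 CPM in EA and 522 ± 25.0 CPM in Control, and Rplp2 365 ± 19.7 CPM in EA and 335 ± 18.0 CPM in Control. Neither passed with TMM, at log2 fold changes of 0.08 and 0.13. Against the pool Rplp1 stood at -0.09 and Rplp2 at -0.04. The pool share of Rplp1 was lower in every EA library than in any Control library.

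Among small subunit proteins, Rps27 (chr3:90119829-90120958, minus strand, GRCm39), which carries a zinc finger, rose most. It was measured at 176, 192, 155 and 161 CPM in EA, against 102, 113, 106 and 109 CPM in Control. All EA libraries stood above all Control libraries. It averaged 171 ± 16.4 CPM in EA and 108 ± 4.59 CPM in Control, a log2 fold change of 0.67 ± 0.07 (adjusted p = 2.15e-08 by edgeR, 1.59-fold). Its pool share was 0.350% ± 0.0277 in EA and 0.248% ± 0.0176 in Control, a log2 fold change of 0.49 ± 0.07 (adjusted p = 1.17e-05 by edgeR). A copy of the gene, Rps27rt, had 1696 reads in EA and 1218 in Control. How reads shared by such similar copies were assigned is not given.

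Rps2 (chr17:24937090-24940903, plus strand, GRCm39), which lies near the mRNA entry site, lost most. It was measured at 2151, 2122, 2041 and 2273 CPM in EA, against 2534, 2257, 2316 and 2301 CPM in Control. The groups overlapped, and the fall of 0.13 ± 0.05 on the log2 scale (adjusted p = 0.0379 by edgeR) did not pass with RLE factors or in 6 of the 8 fits that left out a library. Its pool share did not overlap: 4.39%, 4.26%, 4.40% and 4.55% in EA, against 5.63%, 5.22%, 5.28% and 5.56% in Control. Against the pool it fell by 0.30 ± 0.05 (adjusted p = 3.95e-05 by edgeR). Rpsa, a small subunit protein also known as the laminin receptor, had 2.79% ± 0.0851 in EA and 3.04% ± 0.0800 in Control, a fall of 0.12 on the log2 scale (adjusted p = 0.0393 by edgeR). Over 12 other settings it ran between -0.14 and -0.11, and its adjusted p, between 0.0190 and 0.110, missed the threshold in 7.

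Rps6, the substrate of S6 kinase, averaged 986 ± 51.9 CPM in EA and 782 ± 29.5 CPM in Control, a log2 fold change of 0.33 ± 0.05 (adjusted p = 1.40e-05 by edgeR), and rose by 0.17 against the pool. Rps21 averaged 133 ± 13.7 CPM in EA and 101 ± 6.31 CPM in Control, a log2 fold change of 0.40 ± 0.07 (adjusted p = 5.03e-05 by edgeR), and rose by 0.23 against the pool. Rps29 rose by 0.39 with TMM (adjusted p = 0.0113 by edgeR), with overlapping libraries, and was not called without the fourth Control library. Rps3a1 and Rps15, the most abundant small subunit genes by FPKM (reads scaled by gene length and library total), rose with TMM by 0.24 and 0.18, stood at 0.07 and 0.01 against the pool, and were called lower with library totals. Rps10 did not pass, at a TMM log2 fold change of -0.02.

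The large to small subunit read ratio was 1.446, 1.446, 1.445 and 1.455 in EA, against 1.400, 1.416, 1.394 and 1.391 in Control. The means were 1.45 ± 0.00447 in EA and 1.40 ± 0.0112 in Control, a difference of 0.0481 or 3.44% without overlap. Rps2, which lost share, and Rpl14, which gained it, were then left out, a choice made after their values were seen. Leaving out such members narrows the difference by construction, and Rpl12 and Rpl8, large subunit members that lost share, were not left out. Without Rps2 the difference was 0.0135, and without Rps2 and Rpl14 it was 0.00206, in both cases with overlapping groups. On FPKM, which divides by gene length, it was 0.0247 and the groups overlapped.

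**Figure D3:**
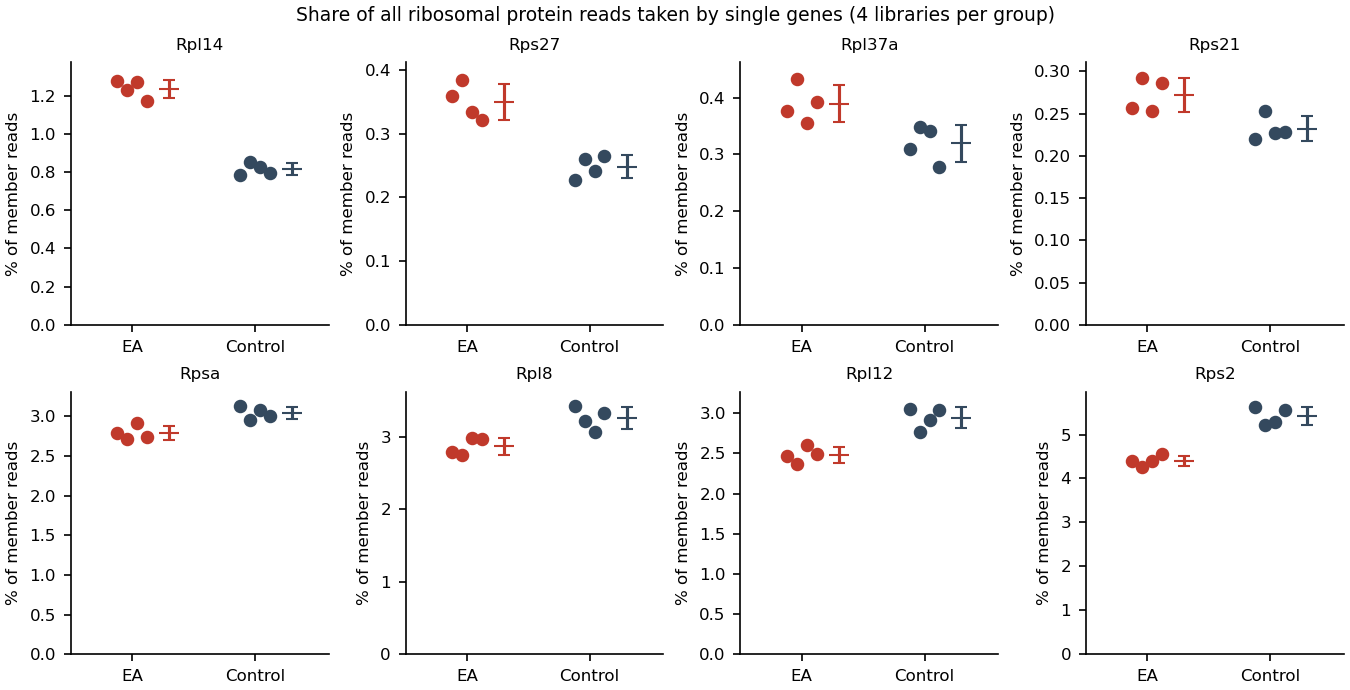
Share of all ribosomal protein reads (percent) taken by 8 members, in each of the 4 EA and 4 Control libraries, with the mean ± SD. Rpl14, Rps27 and Rpl37a were higher in every EA library than in any Control library, Rpsa, Rpl8, Rpl12 and Rps2 were lower, and the groups of Rps21 overlapped.

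Several members have a paralogue, a second gene for a similar protein. Rps27l, a paralogue of Rps27 that p53 induces in human cells, had 34.8%, 36.0%, 32.4% and 36.9% of the Rps27 reads in EA, against 46.5%, 48.6%, 48.4% and 48.1% in Control. The groups did not overlap, at 35.0% ± 1.95 in EA and 47.9% ± 0.938 in Control. Rps27l itself rose by 0.22 ± 0.08 with TMM (adjusted p = 0.0259 by edgeR) and stood at -0.15 with library totals. Its TMM call was lost without Control library 1 and without EA library 1 or 2. Rpl36al, a copy of Rpl36a, rose by 1.33 ± 0.37 (adjusted p = 0.00333 by edgeR), but rested on 68 reads in EA and 34 in Control. Rpl36a rose by 0.20 with TMM and stood at -0.16 with library totals. Rpl22l1 had 10.2% ± 1.0 of the Rpl22 reads in EA and 9.13% ± 0.860 in Control, with overlap, and the pair rose with TMM by 0.35 and 0.19 and stood at -0.01 and -0.17 with library totals. Rpl7l1 had 21.0% ± 0.727 of the Rpl7 reads in EA and 23.2% ± 1.58 in Control, with overlap. Rpl10l and Rpl39l, known for their expression in testis, had no reads, and Rpl3l, known from muscle, had 9 in all. Rps4x, whose planned partner Rps4l had no row and was not analysed here, rose with TMM by 0.14 and was at -0.22 with library totals.

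Levels of tested members, as mean FPKM over all 8 libraries, ran from 0.601 for Rpl36al to 1857 for Rplp0, with a median of 207 over all members. Of the 100 most counted genes, 17 were members. The 5 most counted members took 20.5% of the members' reads in EA and 22.0% in Control. Of all members, 11 stood under a 10th of the median: Rpl3l, Rpl39l, Rpl10l, Rpl22l1 and Rpl36al among the paralogues, and Rps10, Rpl23a, Rpl30, Rpl35, Rpl13a and Rpl24, which are standard components of the ribosome. How reads shared with gene copies were counted is not given in the sources used here, so these low values carry that limit. Over 80 members, the TMM log2 fold change had a Spearman correlation of -0.06 with log2 FPKM and -0.21 with log2 gene length, as a description. The median coefficient of variation between libraries was 5.12% in EA and 5.08% in Control.

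Genes that make, load or regulate ribosomes were set beside the members by lists chosen with earlier results known. Of 24 translation factor genes, most of them with the same kind of 5′ tract, 16 (66.7%) rose and 2 (8.33%) fell with TMM, where 33.1% and 34.2% of all tested genes did, with a median log2 fold change of 0.24. With library totals 12 (50.0%) fell, against 61.1% of all genes. Eif4a2, a helicase subunit of the initiation complex, rose by 0.48 and Eif3h by 0.42 with TMM. On library totals they stood at 0.12 and 0.06, without a call. Npm1, a nucleolar chaperone, fell by 0.22 with TMM, and Pabpc1, which binds poly(A) tails, fell by 0.13. With each library left out in turn its log2 fold change ran between -0.14 and -0.10, and the call was lost in 6 of the 8 fits. Eef1a1 and Eef2, the elongation factors, rose by 0.28 and 0.40 with TMM, stood at -0.09 and 0.04 with library totals, and were named after their values were seen.

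Of 42 ribosome biogenesis factors, 12 (28.6%) rose and 13 (31.0%) fell with TMM (median -0.04), near the 33.1% and 34.2% of all tested genes. With library totals 3 rose and 34 (81.0%) fell, against 16.5% and 61.1% of all genes. Ubtf, which starts ribosomal RNA transcription, rose by 0.82 and Rrp1b by 1.03. Nop14 and Wdr12, which assemble the subunits, fell by 0.63 and 0.48, and Fbl, the rRNA methyltransferase, by 0.30. Mitochondrial ribosomal protein genes, which build a separate ribosome, had 6 of 77 (7.79%) that rose and 23 (29.9%) that fell with TMM (median -0.10), against 33.1% and 34.2% of all genes. With library totals 1 rose and 66 (85.7%) fell, against 16.5% and 61.1%. Mrps6 rose by 0.80 and Mrpl48 by 0.37 with TMM, while Mrpl49 fell by 0.76 and Mrps26 by 0.60. On library totals Mrps6 was still called higher, at 0.44, and Mrpl48 stood at 0.01 without a call.

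Among 24 tested regulators of ribosomal protein synthesis, 9 (37.5%) rose and 6 (25.0%) fell with TMM (median 0.09), against 33.1% and 34.2% of all genes. With library totals 5 rose and 16 (66.7%) fell, against 16.5% and 61.1%. Deptor, an inhibitor of mTOR, was the most changed, at 238 ± 7.99 CPM in EA and 28.0 ± 2.38 CPM in Control (log2 fold change 3.09, 8.50-fold). Eif4ebp2, a brake on translation that mTOR releases, rose by 0.99, while its relative Eif4ebp1 fell by 0.52. Sesn2, a stress-induced inhibitor of mTOR, fell by 1.36. Myc, a driver of ribosome genes, averaged 90.5 ± 13.4 CPM in EA and 176 ± 23.3 CPM in Control and fell by 0.96; Fbl and Myc were named after their values were seen. These are mRNA levels, and mTOR activity was not measured.

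**Figure D4:**
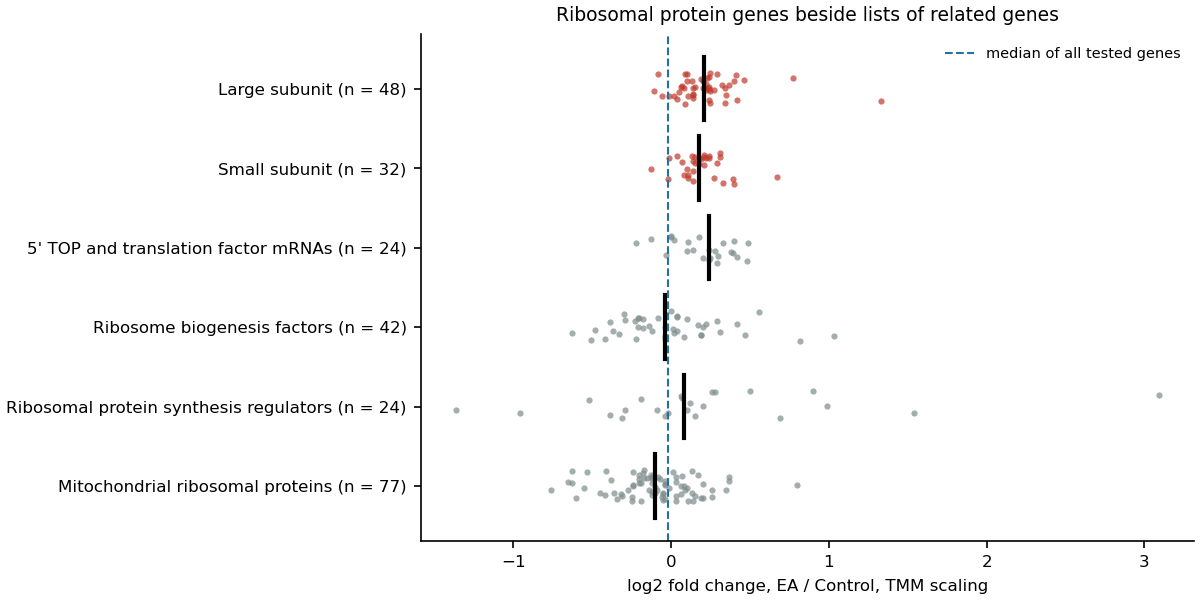
Log2 fold change of EA over Control (TMM scaling) for each tested gene of both subunits and of 4 related lists, with black bars at the list medians and a dashed line at the median of all tested genes, -0.02. The medians were 0.21 for the large and 0.18 for the small subunit and 0.24 for translation factors, against -0.04 for biogenesis factors and -0.10 for mitochondrial ribosomal proteins. With library totals both subunit medians were under 0.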

How the data were processed

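Poly(A) RNA was sequenced in 8 libraries, per the labels' protocols. The submitters' processing notes name cutadapt 1.15, HISAT2 2.0.5 and GRCm39; the counter, its strand setting and how it treats shared reads are not given in those notes or the other sources. The deposited counts are whole reads per gene, made by the authors. The deposited FPKM values, also made by the authors, equal counts divided by gene length and library total, to a relative deviation of at most 3.56e-14. The labels do not say whether libraries are separate animals or cultures, and p-values then describe only the variation among these libraries, possibly technical.

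Counts were tested with edgeR 4.0.16 (R 4.3.3; TMM, count filter by group, robust quasi-likelihood F test, no covariates), adjusted by Benjamini-Hochberg over 11777 genes at 0.05, and again with the summed member reads as library size. The common biological coefficient of variation was 7.78%. The SE of a log2 fold change is its size over the square root of F. The procedure was tested on simulated counts in which 200 genes were raised or lowered at random, all with the common coefficient of variation. In the data themselves, 67.2% of tested genes were called with TMM. That test therefore does not bear on the choice of scaling or on data in which most genes change. Named genes were, per subunit, the 4 highest and 4 lowest log2 fold changes and the 2 most abundant by FPKM, the paralogues, the stalk genes and Rpsa, and up to 2 genes in each direction of each list. Members and lists were chosen with earlier results of these data known. Alternatives were library totals, RLE and upper-quartile factors, other filters, DESeq2 1.42.0, a replicate block and each library left out. Results for some members are not reported here.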

Additional observations from a re-analysis of the deposited data

Results flagged for a closer look

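In 6 of 98 groups of 4 libraries looked at, 1 library lay far from the other 3 by Dixon's criterion, and chance marks about 1 in 20 groups. The large to small subunit read ratio was 1.455 in EA library 4, against 1.445 to 1.446 in the other EA libraries. Rpl8 was at 1481 CPM in EA library 4, against 1365 to 1381 CPM in the others. Rpl10 was at 1187 CPM in EA library 4, against 1098 to 1112 CPM. Rps6 was at 1064 CPM in EA library 2, against 956 to 970 CPM. Rps29 was at 44.2 CPM in Control library 2, against 39.8 to 40.2 CPM. Deptor was at 226 CPM in EA library 4, against 242 to 243 CPM in the other EA libraries. Library 4 of EA held 4 of the 6.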

How the results depend on the processing

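The direction of the members' change rested on the scaling. With library totals 3 members rose and 54 fell, with upper-quartile factors 12 rose and 4 fell, and with RLE factors 54 rose and 0 fell, where 1 was lower at an unadjusted p under 0.05 and DESeq2 called 1 lower. The large subunit median was -0.15 with library totals and 0.05 with upper-quartile factors, and the small subunit median -0.18 and 0.02. With library totals these log2 fold changes changed sign: Rplp0 -0.22, Rps6 -0.03, Rps3a1 -0.13, Rps15 -0.18, Rpl22l1 -0.01, Rpl22 -0.17, Rps27l -0.15, Rpl36a -0.16, Rpl7 -0.15, Rpl3 -0.12, Rpl10 -0.03, Rps4x -0.22 and Eef1a1 -0.09. Of these, Rps6, Rpl22l1, Rps27l, Rpl10 and Eef1a1 were not called on that scale, and the others were called lower. With upper-quartile factors Rplp0 and Rps4x were at -0.02. The cause follows from the construction, since the scalings shift all genes together.

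Leaving out each library in turn, 41 to 59 members rose and 0 to 1 fell. Against the pool, 9 to 15 rose and 3 to 7 fell, with 3 that fell without EA library 1 and 3 without a count filter. The share difference ran from -0.702 to -0.551 points and the subunit ratio difference from 0.0451 to 0.0534; alternatives chosen after seeing the data gave 0.0135 without Rps2, 0.00206 without Rps2 and Rpl14, and 0.0247 on FPKM. The medians ran from 0.19 to 0.24 in the large and 0.16 to 0.21 in the small subunit.

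Libraries of the same number did not deviate together (correlations of 0.0267, 0.0237, 0.0269 and -0.0216), and none correlated best with its own number. With the replicate block 48 members rose and 1 fell, and 11 rose and 4 fell against the pool. With the block, the TMM calls of the 51 named genes did not change, and the pool calls on Rps25, Rpl10a, Rpl29 and Rpl13a were lost. When a library was left out, TMM calls were also lost for Rpl36a (without EA 2 or EA 4), Rps4x (without Control 2 or EA 1) and Rpl22l1 (without EA 2). Rpl36al and other genes with few reads are limited by depth.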
